A study of Mus musculus with 14 samples.

Results

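NF-kB is a family of transcription factors built from 5 related subunits, whose genes in the mouse are Nfkb1, Nfkb2, Rel, Rela and Relb, and it is held in check or steered by IκB proteins, of which 5 are described here through the genes Nfkbia, Nfkbie, Nfkbid, Nfkbiz and Bcl3. These 10 genes were taken by their symbols from a table of 55414 genes. No threshold on a measured value entered the choice, but it was made with earlier results of these data known. All 10 were among the 12851 genes with enough counts to be tested, with counts per library between 25 (Nfkbid) and 4832 (Nfkbia).

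In the canonical arm of the pathway, signals from Toll-like, TNF and IL-1 receptors activate the IKK kinase complex, which marks IκBα (encoded by Nfkbia) and IκBε (Nfkbie) for degradation and lets dimers such as p50 (made from Nfkb1) with RelA or c-Rel enter the nucleus. In the non-canonical arm, the kinase NIK (Map3k14) drives the processing of the Nfkb2 product p100 to p52, which works with RelB. Nfkb2, Relb and the IκB genes are themselves textbook NF-kB targets in macrophages, and Nfkbid, Nfkbiz and Bcl3 encode nuclear IκB proteins that bind p50 or p52 and can raise or lower transcription.

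The RNA came from wild-type primary bone marrow-derived macrophages (pBMDMs) of young adult C57BL/6N mice, differentiated with M-CSF and kept for 24 h in filtered supernatant of Pfa1 cells or in fresh medium. Pfa1 cells are embryonic fibroblasts (MEFs) of the mouse, where 4-hydroxytamoxifen (4OHT) activates a Cre recombinase that deletes Gpx4, the enzyme that detoxifies lipid peroxides, so that they die by ferroptosis, and ferrostatin-1 (Fer1) is a radical-trapping inhibitor of that death. The MEFs had been left untreated (ctrl), given 4OHT (labelled Tam), given 4OHT with Fer1 (4OHT+Fer1) or given Fer1 alone, with 3 replicates each, and the medium group (medium ctrl) held 2 replicates, numbered 1 and 2. The study thus asked how macrophages respond to the secretome of ferroptotic fibroblasts.

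Gpx4 was deleted in the MEFs and not in the sequenced cells, 1 MEF line gave every supernatant, and the transferred supernatants may have carried 4OHT and Fer1 along, so that a direct action of these compounds on the macrophages and one of the secretome cannot be told apart in every comparison. Libraries were made from the 3′ ends of transcripts and held between 7823051 and 11052352 counts. Levels are given as CPM, counts relative to the library's total in the genes tested, scaled by TMM, a factor that corrects for the makeup of each library. In such bulk samples, fewer cells of a type and less RNA per cell cannot be told apart.

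All 9 macrophage markers examined passed the count filter, and their summed level lay between 21846 and 46859 CPM in the 14 libraries. Their sum was higher in each 4OHT library (31252 to 46859 CPM) than in each ctrl library (21846 to 30623 CPM). Most of it was Lyz2, with a mean of 18494 CPM in ctrl and 26331 CPM with 4OHT. Of the 9 markers, 6 had positive and 3 negative log2 fold changes, with a median of 0.26. At an unadjusted p under 0.05 in the edgeR test described below, 4 were higher and 0 lower with 4OHT, against 10.8% of all genes in either direction. Csf1r did not overlap, at 1671 to 2263 CPM in ctrl and 3634 to 4708 CPM with 4OHT, as held in this direction for 5.2% of all genes. The summed neutrophil markers were 28.0, 23.6 and 4.05 CPM in 4OHT libraries 1, 2 and 3 and 15.7, 16.9 and 2.87 CPM in ctrl. No single marker of either kind passed the test between these groups, and the part of these differences in the results on NF-kB genes was not tested.

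Because several of these genes are themselves NF-kB targets, stretches around matches to the κB consensus are printed from RefSeq promoter windows (assembly GRCm38.p6, 250 bases before to 50 bases after a transcript start). The consensus was searched on both strands as 3 guanines, a purine, any base, an adenine or a thymine, 2 pyrimidines and 2 cytosines, and a window held the consensus where it had at least 1 match on either strand, overlapping matches being kept as separate ones. Windows were found for 7 of the 10 genes, and not for Nfkb1, Relb and Nfkbiz. At least 1 match lay in a window of 6 of these 7 genes, all but Rela, while 5.14% of 27025 genes with a window held one. Not every match is printed, as the windows of Nfkb2, Rel and Nfkbid held further ones. The sequences run 5′ to 3′ on the strand of the gene, with the match in capitals.
Nfkb2, chr19:46304688-46304717, plus strand: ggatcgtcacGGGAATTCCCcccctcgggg
Nfkb2, chr19:46304716-46304745, plus strand: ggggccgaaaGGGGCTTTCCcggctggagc
Nfkb2, chr19:46305695-46305724, plus strand: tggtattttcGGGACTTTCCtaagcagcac
Rel, chr11:23771042-23771071, minus strand: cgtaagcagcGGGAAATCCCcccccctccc
Nfkbia, chr12:55492657-55492686, minus strand: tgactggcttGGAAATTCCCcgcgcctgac
Nfkbie, chr17:45555584-45555613, plus strand: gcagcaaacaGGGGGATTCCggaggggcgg
Nfkbid, chr7:30422170-30422199, plus strand: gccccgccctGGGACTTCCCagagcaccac
Bcl3, chr7:19822734-19822763, minus strand: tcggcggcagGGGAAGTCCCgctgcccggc
The first Nfkb2 match is the same read on either strand and began 39 bases before an annotated start. The Nfkbia and Bcl3 matches lay on the strand opposite to the gene, so that their capitals fit the consensus when read on the other strand. The matches of Nfkbia, Nfkbie and Rel lay 29, 106 and 92 bases before the starts of their genes. The Bcl3 match lay after the start and began at base 3, with the start as base 1. The third Nfkb2 match began at base 11 from one annotated start and 225 bases before another. A match is a description of the letters in the window and not a measured binding site.

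Among the 10 genes, Nfkb2 was the only one that passed the test between macrophages in 4OHT supernatant and those in ctrl supernatant, with a fold change of 1.68. Its partner Relb had a fold change of 1.74 and missed the threshold narrowly, while Nfkb1, Rela and Rel had log2 fold changes between -0.10 and 0.20. Genes are called here at an adjusted p under 0.05 (edgeR, quasi-likelihood, Benjamini-Hochberg over all 12851 genes), in 1 model of all 14 libraries with the replicate number as a block. By that rule 1 of 10 genes was called higher and 0 lower, against 0.482% and 1.01% of all genes. At an unadjusted p under 0.05 in edgeR there were 4 of 10 (Nfkb2, Relb, Nfkbie and Bcl3), against 10.8% of all genes. The median log2 fold change of the 10 genes was 0.48, beside 0.0059 over all genes tested, and 6 of 10 were higher in the 4OHT library of every replicate number, as 15.4% of all genes were.

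**Figure D1:**
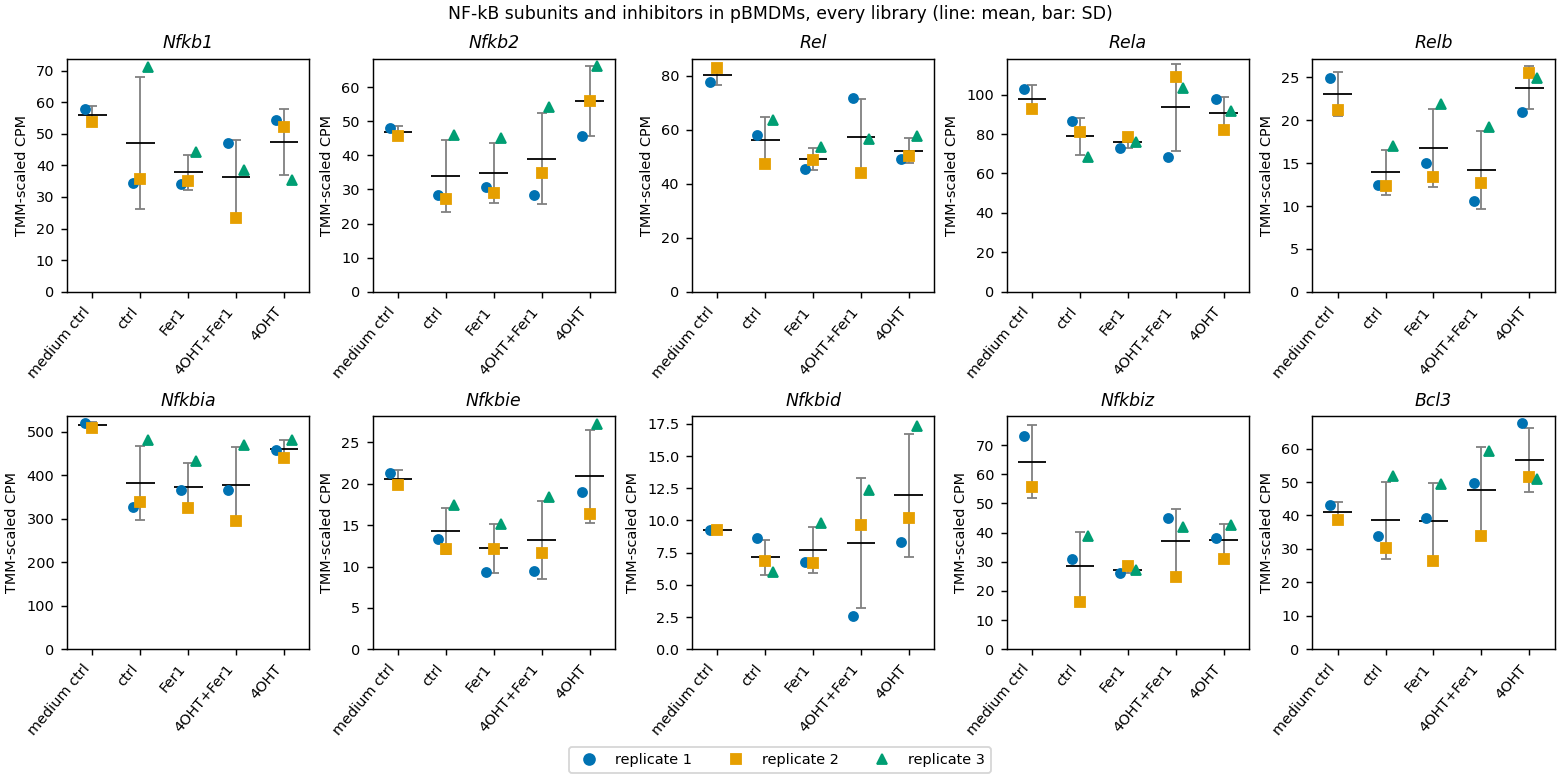
Each panel shows 1 gene, with TMM-scaled CPM on the y axis and the 5 groups on the x axis. Points are libraries by replicate number, the line is the mean and the bar the SD. Relb is higher in each 4OHT library (21.0 to 25.6 CPM) than in each ctrl library (12.4 to 17.0 CPM), and Nfkbiz is highest in the 2 medium ctrl libraries.

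Nfkb2 (ENSMUSG00000025225), which encodes p100/p52, stood at 28.5, 27.3 and 46.0 CPM in the ctrl libraries with replicate numbers 1, 2 and 3. The 4OHT libraries held 45.7, 55.9 and 66.1 CPM in the same order. Each 4OHT library thus exceeded the ctrl library of its own number, although the lowest 4OHT and the highest ctrl library overlapped by a small margin. Nfkb2 rose by a log2 fold change of 0.75 (SE 0.15, 95% interval 0.42 to 1.08, adjusted p = 0.0310, edgeR).

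The call of Nfkb2 depended on the model far more than its fold change did. A model with no block gave a log2 fold change of 0.72 with an adjusted p of 0.584, and one of only the 2 groups gave an adjusted p of 0.370. Leaving out 1 library at a time gave log2 fold changes between 0.63 and 0.85 and adjusted p-values between 0.0193 and 0.171, with the call kept in 5 of 14 fits. It was kept without ctrl 3, without 4OHT 3 and without each of the 4OHT+Fer1 libraries, and lost without any of the other 9. Adding a threshold of an absolute log2 fold change above 1 to the same edgeR test called 0 of the 10 genes, against 1.11% of all genes.

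Relb (ENSMUSG00000002983), the subunit that pairs with p52, was measured at 12.5, 12.4 and 17.0 CPM in ctrl libraries 1, 2 and 3. In the 4OHT libraries it stood at 21.0, 25.6 and 24.9 CPM. It was the only one of the 10 genes whose 4OHT and ctrl libraries did not overlap, which was true in this direction of 5.2% of all genes tested. The log2 fold change was 0.80 (SE 0.19, 95% interval 0.39 to 1.20, adjusted p = 0.0588, edgeR), so that Relb was not called. DESeq2 on the same model gave an adjusted p of 0.00943, and edgeR called Relb in 2 of the 14 fits that left out a library (without 4OHT+Fer1 1, adjusted p = 0.0417, and without 4OHT 3, adjusted p = 0.0265).

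With each of the other supernatants, the library held less Nfkb2 and Relb than the 4OHT library of the same number. Nfkb2 stood at 28.2, 34.8 and 54.1 CPM in the 4OHT+Fer1 libraries and at 30.8, 28.9 and 45.0 CPM in the Fer1 libraries. Relb was at 10.6, 12.7 and 19.2 CPM with 4OHT+Fer1 and at 15.0, 13.4 and 21.9 CPM with Fer1. For both genes replicate 3 was the highest of its group in ctrl, Fer1 and 4OHT+Fer1, so that the 4OHT difference reads most clearly within a replicate number. The differences between 4OHT and ctrl in log2 CPM were 0.68, 1.03 and 0.52 for Nfkb2 and 0.74, 1.04 and 0.55 for Relb in replicates 1, 2 and 3.

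**Figure D2:**
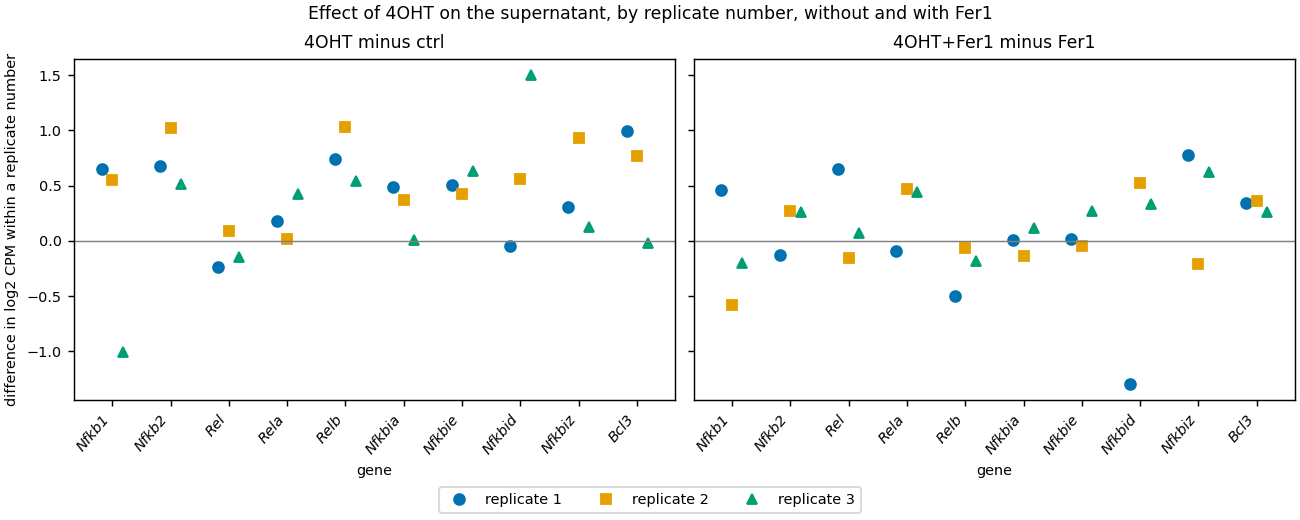
The y axis gives the difference in log2 CPM within a replicate number, 4OHT minus ctrl on the left and 4OHT+Fer1 minus Fer1 on the right, for the 10 genes on the x axis. On the left all 3 points of Nfkb2 and Relb lie above 0 (0.52 to 1.04), and those of Nfkb1 spread from -1.003 to 0.65.

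Nfkb1 (ENSMUSG00000028163), the gene of p105/p50, had the widest spread between ctrl libraries among the subunits, with 34.5, 35.6 and 71.2 CPM. With 4OHT it stood at 54.4, 52.2 and 35.4 CPM. The replicate numbers therefore disagreed, with differences of 0.65 and 0.55 log2 units in numbers 1 and 2 and of -1.003 in number 3. The fitted log2 fold change was 0.073 (SE 0.29, adjusted p = 0.965, edgeR) with a 95% interval from -0.56 to 0.70.

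Rela (ENSMUSG00000024927), the main activating subunit of the canonical arm, was at 86.7, 81.2 and 68.3 CPM in ctrl and at 98.0, 82.2 and 91.7 CPM with 4OHT. Its log2 fold change was 0.20 (SE 0.18, 95% interval -0.19 to 0.60, adjusted p = 0.797, edgeR). Rel (ENSMUSG00000020275), which encodes c-Rel, was at 58.0, 47.2 and 63.7 CPM in ctrl and at 49.1, 50.2 and 57.7 CPM with 4OHT. Its log2 fold change of -0.10 (95% interval -0.47 to 0.27, adjusted p = 0.903, edgeR) was the only negative one among the 10 genes. The upper bounds of 0.60 and 0.27 lie below the fitted values for Nfkb2 and Relb, but the difference between genes was not tested.

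Among the cytoplasmic inhibitors, Nfkbie (ENSMUSG00000023947), the IκBε gene, was at 13.4, 12.2 and 17.4 CPM in ctrl and at 19.1, 16.4 and 27.2 CPM with 4OHT. All 3 replicate numbers showed the 4OHT library higher, by 0.51, 0.43 and 0.63 log2 units, but the ranges of the groups overlapped. The log2 fold change was 0.53 (SE 0.18, unadjusted p = 0.0112 in edgeR's fit over all genes, adjusted p = 0.235). Nfkbia (ENSMUSG00000021025), the IκBα gene and a fast feedback inhibitor, was at 326, 339 and 479 CPM in ctrl and at 457, 438 and 481 CPM with 4OHT. Its libraries 1 and 2 differed by 0.49 and 0.37 log2 units, number 3 hardly at all, and the log2 fold change was 0.29 (SE 0.14, adjusted p = 0.488, edgeR).

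The 3 nuclear IκB genes were not called either. Bcl3 (ENSMUSG00000053175), whose protein works with p50 and p52 dimers, was at 33.7, 30.2 and 51.7 CPM in ctrl and at 67.5, 51.4 and 50.9 CPM with 4OHT. Numbers 1 and 2 were higher with 4OHT by 1.00 and 0.77 log2 units and number 3 was level at -0.02, which gave a log2 fold change of 0.60 (SE 0.19, adjusted p = 0.210, edgeR). Without the 4OHT 3 library Bcl3 was called, with an adjusted p of 0.0176 (edgeR).

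Nfkbiz (ENSMUSG00000035356), which encodes the co-activator IκBζ, was at 30.9, 16.2 and 39.0 CPM in ctrl and at 38.1, 31.1 and 42.6 CPM with 4OHT, a log2 fold change of 0.43 (SE 0.22, adjusted p = 0.535, edgeR). Nfkbid (ENSMUSG00000036931), the gene of IκBNS, was the least counted of the 10, at 8.61, 6.84 and 5.96 CPM in ctrl and at 8.32, 10.2 and 17.3 CPM with 4OHT. Its log2 fold change of 0.62 carried the largest error of the set (SE 0.39, 95% interval -0.22 to 1.47, adjusted p = 0.648, edgeR), an interval that includes 0.

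Fer1 in the MEF culture is the study's control for whether an effect belongs to ferroptosis. Between 4OHT and 4OHT+Fer1, 0 of 10 genes were called, against 1.35% of all genes (edgeR). At an unadjusted p under 0.05 there were 4 (Nfkb2, Relb, Nfkbia and Nfkbie, against 11.8% of all genes), all higher with 4OHT alone, and DESeq2 called 3 (Nfkb2, Relb and Nfkbie), against 3.17% of all genes that it called. The log2 fold changes were 0.79 for Relb (95% interval 0.39 to 1.20, adjusted p = 0.0643), 0.68 for Nfkbie (0.29 to 1.07, adjusted p = 0.103) and 0.56 for Nfkb2 (0.23 to 0.88, adjusted p = 0.112, all edgeR). Relb again did not overlap between the groups, as held in this direction for 4.4% of all genes. Nfkb1, Nfkbid and Bcl3 had log2 fold changes of 0.44, 0.57 and 0.30, Nfkbiz was at 0.031, and Rela and Rel were at -0.040 and -0.13. Without ctrl 3 there was 1 call, against 2.10% of all genes, and without 4OHT 3 there were 2, against 3.67%. Leaving out any other supernatant library gave 0. Without the block and with only the groups compared 0 of 10 were called as well, against 0.156% and 0.312% of all genes. This comparison and the one with ctrl share the 4OHT libraries, so that they are not independent.

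**Figure D3:**
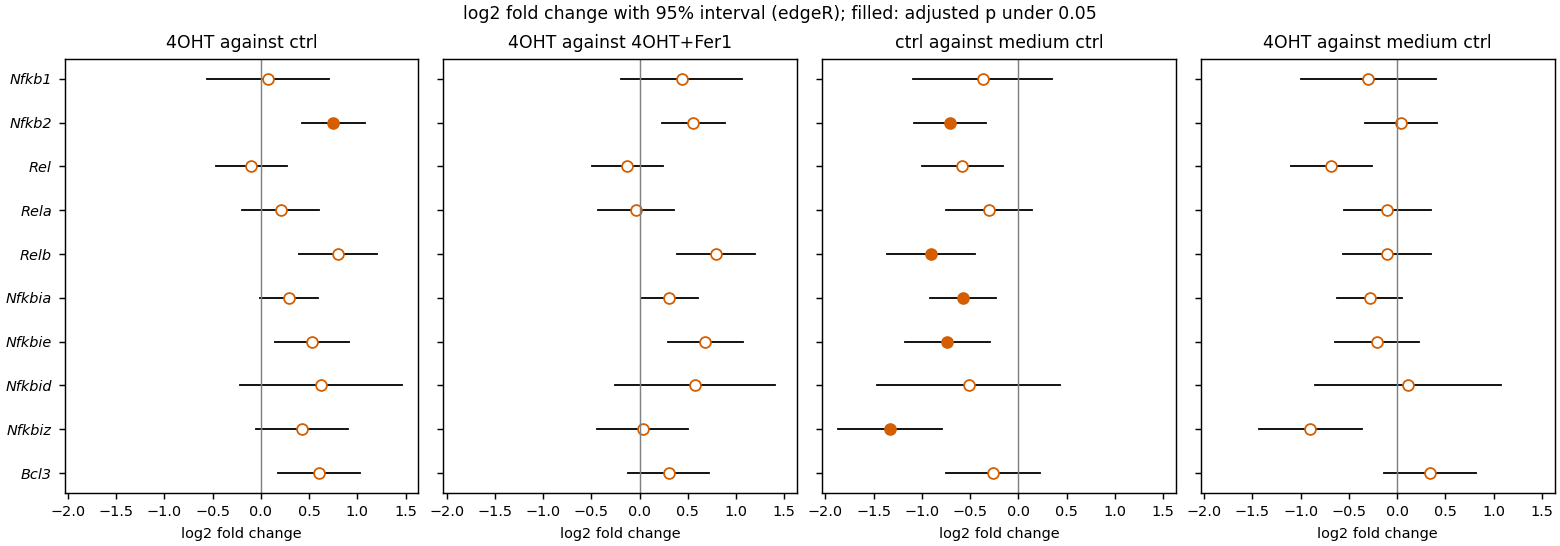
Points are log2 fold changes of the 10 genes with 95% intervals, from edgeR, in 4 comparisons, and filled points have an adjusted p under 0.05. Nfkb2 is filled at 0.75 for 4OHT against ctrl, and 5 genes are filled between -1.33 and -0.57 for ctrl against medium ctrl. The panels share groups.

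None of these genes was called between the other supernatants. Between 4OHT+Fer1 and ctrl, 0 of 10 were called (0.0311% of all genes), with log2 fold changes from -0.36 for Nfkb1 to 0.40 for Nfkbiz. For Fer1 against ctrl there were also 0 of 10 (0% of all genes), from -0.29 for Nfkb1 to 0.25 for Relb, and for 4OHT+Fer1 against Fer1 0 of 10 (0.0233% of all genes), from -0.25 for Relb to 0.38 for Nfkbiz. None of the 10 genes reached an unadjusted p under 0.05 in these 3 comparisons in edgeR, as 4.31%, 1.14% and 2.07% of all genes did, and DESeq2 called 0 as well. For Relb the 95% interval of 4OHT+Fer1 against ctrl ran from -0.40 to 0.41. For Nfkb1 it ran from -0.99 to 0.27 and for Nfkbid from -0.81 to 0.91, so that differences of such size remain possible. In this comparison 2 of 10 genes, Nfkbiz and Bcl3, were higher with 4OHT+Fer1 within every replicate number, as 11.2% of all genes were. Their log2 fold changes were 0.40 and 0.30, beside 0.43 and 0.60 for 4OHT against ctrl.

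Whether the effect of 4OHT itself differed with and without Fer1 was tested as an interaction. 0 of 10 genes were called, as 0.0311% of all genes were (edgeR), and DESeq2 called 0 of them. At an unadjusted p under 0.05 edgeR had 2, against 6.2% of all genes. The smallest p were those of Relb, with an estimate of 1.04 log2 units (SE 0.26, unadjusted p = 0.00178 in edgeR's fit, adjusted p = 0.286), and of Nfkb2, with 0.61 (SE 0.21, unadjusted p = 0.0136, adjusted p = 0.596). Nfkbid had an estimate as large as that of Nfkb2, 0.61, with a larger error (SE 0.54, adjusted p = 0.978, edgeR). For Relb the estimate was a higher level with 4OHT in the absence of Fer1 and a log2 fold change of -0.25 in its presence.

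Macrophages in fresh medium held higher levels of several of these genes than those in supernatant of live MEFs. Nfkbiz, Relb, Nfkb2, Nfkbie and Nfkbia were called lower in ctrl than in medium ctrl, 5 of 10 genes, against 5.58% of all genes called lower. None was called higher, against 5.28% of all genes. Nfkbiz fell by 1.33 on the log2 scale (SE 0.25, adjusted p = 0.00432), Relb by 0.90 (SE 0.21, adjusted p = 0.0158), Nfkbie by 0.74 (SE 0.20, adjusted p = 0.0356), Nfkb2 by 0.71 (SE 0.17, adjusted p = 0.0186) and Nfkbia by 0.57 (SE 0.16, adjusted p = 0.0358, all edgeR). The other members had log2 fold changes of -0.58 for Rel (adjusted p = 0.0759), -0.51 for Nfkbid, -0.37 for Nfkb1, -0.31 for Rela and -0.26 for Bcl3. All 10 estimates were negative, with a median of -0.58 beside -0.0084 over all genes, and both replicate numbers that can be compared showed the lower level in ctrl for each gene, as held for 35.4% of all genes.

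In medium ctrl the 2 libraries held 73.1 and 55.5 CPM of Nfkbiz, 77.8 and 83.1 CPM of Rel, and 520 and 508 CPM of Nfkbia. These 3 genes were higher in both medium libraries than in any of the 12 supernatant libraries, 4OHT included. Against the 4OHT libraries alone, 13.8% of all genes tested were higher in both medium libraries. Nfkbie, at 21.3 and 19.8 CPM in medium, exceeded the 9 libraries of live-cell supernatant, the highest of which held 18.4 CPM, but not the 4OHT library of replicate 3. The shares of all genes above all 12 supernatant or all 9 live-cell libraries were not computed. Relb at 24.9 and 21.2 CPM and Nfkb2 at 48.0 and 45.6 CPM in medium overlapped the 4OHT range. Between ctrl and medium, 7 of 10 genes did not overlap, in a comparison where 17.1% of all genes were separated in that direction.

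These calls rest on 2 medium libraries and on the block. Without the block 0 of 10 genes were called between ctrl and medium ctrl, against 4.07% of all genes, and with total counts in place of TMM 3 were, against 10.8%. Leaving out ctrl 1 or ctrl 2 left 1 call each, against 7.14% and 6.16% of all genes. A fit without medium ctrl 1 or medium ctrl 2 leaves 1 medium library. In these 2 fits the 5 genes had log2 fold changes from -1.36 to -0.61 and from -1.28 to -0.51. Without Fer1 1, Fer1 3 or 4OHT+Fer1 3 there were 3, against 8.46%, 8.49% and 9.14% of all genes. Nfkbiz was called in 13 of the 14 fits without a library, Relb and Nfkb2 in 10 each, Nfkbia in 6 and Nfkbie in 5.

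The summed levels of neutrophil and dendritic cell markers did not overlap between the medium and supernatant libraries. Those of fibroblast, B cell and T and NK cell markers did overlap. Between ctrl and medium ctrl, 2 of the 4 neutrophil and 2 of the 4 fibroblast markers tested were called lower in ctrl. So were 3 of the 9 macrophage markers (Adgre1, Fcgr1 and Mertk), whose median log2 fold change was -0.45. The summed level of the neutrophil markers, of which 4 of 8 could be tested, was 38.2 and 55.2 CPM in medium ctrl and between 2.87 and 28.0 CPM in the 12 supernatant libraries, with the defining markers Ly6g and Elane at 0 in every library. Dendritic cell markers summed to 3.17 and 1.78 CPM in medium and to between 0 and 1.29 CPM in supernatant, with none of 6 testable. The fibroblast markers (4 of 9 testable) summed to 104 and 33.8 CPM in medium and to between 15.5 and 121 CPM in supernatant. B cell markers and T and NK cell markers stayed at or below 3.50 and 0.704 CPM. The part of these marker levels in the medium results was not tested.

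Set against the same medium libraries, 4OHT supernatant gave no call in the 10 genes (4.26% of all genes were called in either direction). At an unadjusted p under 0.05 there were 2, Nfkbiz and Rel, against 15.8% of all genes, and DESeq2 called 2, against 6.66% of all genes. Nfkb2 had a log2 fold change of 0.039 (95% interval -0.33 to 0.41), Relb one of -0.10 (-0.56 to 0.35) and Nfkbie one of -0.21 (-0.64 to 0.23), so that differences of up to about these bounds remain possible. Nfkbiz, at -0.90 (-1.43 to -0.37, adjusted p = 0.0626), and Rel, at -0.68 (-1.10 to -0.26, adjusted p = 0.0720, edgeR), had intervals below 0. Bcl3 alone stood above medium in every 4OHT library (50.9 to 67.5 against 38.7 and 43.2 CPM), with a log2 fold change of 0.34 (adjusted p = 0.536), where 14.7% of all genes were separated in that direction.

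The supernatants of the other live cultures were compared with the same 2 medium libraries, which all of these comparisons share. With 4OHT+Fer1, 4 of 10 genes were lower than in medium, against 4.88% of all genes, namely Nfkbiz (-0.93, adjusted p = 0.0308), Relb (-0.90, adjusted p = 0.0179), Nfkbie (-0.89, adjusted p = 0.0153) and Nfkbia (-0.59, adjusted p = 0.0320, edgeR). With Fer1, 5 of 10 were lower, against 4.91% of all genes, namely Nfkbiz (-1.31, adjusted p = 0.00434), Nfkbie (-0.97, adjusted p = 0.00861), Rel (-0.77, adjusted p = 0.0242), Nfkb2 (-0.66, adjusted p = 0.0287) and Nfkbia (-0.59, adjusted p = 0.0311, edgeR). Without the block these counts were 0 and 1, against 4.45% and 4.07% of all genes. The first was 0 without 4OHT+Fer1 2, against 5.6% of all genes. The second was 1 without Fer1 1, against 5.52%, and 2 without Fer1 2 or Fer1 3, against 5.9% and 7.15%. Both counts also rest on the 2 medium libraries, and a fit without either leaves 1.

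Across the 5 groups the mean level of Nfkb2 ran from 4OHT (55.9 ± 10.2 CPM, SD, n = 3) over medium ctrl (46.8 ± 1.69, n = 2), 4OHT+Fer1 (39.0 ± 13.4, n = 3) and Fer1 (34.9 ± 8.82, n = 3) to ctrl (34.0 ± 10.5, n = 3). For Relb the order was 4OHT (23.8 ± 2.49 CPM, n = 3), medium ctrl (23.1 ± 2.58, n = 2), Fer1 (16.7 ± 4.55, n = 3), 4OHT+Fer1 (14.2 ± 4.52, n = 3) and ctrl (13.9 ± 2.65, n = 3). Neighbours in either order had overlapping ranges. Over the 10 genes only 4 such steps did not overlap, and each was the step down from medium ctrl, to 4OHT for Nfkbia and Nfkbiz, to 4OHT+Fer1 for Rel and to ctrl for Nfkbie. A group of 2 libraries separates from its neighbours more easily than one of 3, and the share of all genes with such steps was not computed.

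Ratios of counts within a library do not depend on scaling and are given as a description. Relb counts per Rela count were 0.144, 0.152 and 0.249 in ctrl and 0.214, 0.311 and 0.272 with 4OHT. They were 0.155, 0.117 and 0.186 with 4OHT+Fer1, 0.206, 0.170 and 0.289 with Fer1, and 0.243 and 0.230 in medium. The ratio was thus higher with 4OHT than in ctrl within each replicate number, and the ranges overlapped. For Nfkb2 per Nfkb1 the ctrl values of 0.824, 0.768 and 0.646 were all below the 4OHT values of 0.841, 1.07 and 1.86, although 2 of the 4OHT+Fer1 libraries (1.49 and 1.41) were also high and the third was at 0.601. The Fer1 libraries (0.907, 0.824 and 1.02) and the medium libraries (0.829 and 0.849) overlapped the 4OHT range. Nfkbia per Rela ranged from 3.76 to 7.01 in ctrl and from 4.67 to 5.33 with 4OHT, the latter inside the former.

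**Figure D4:**
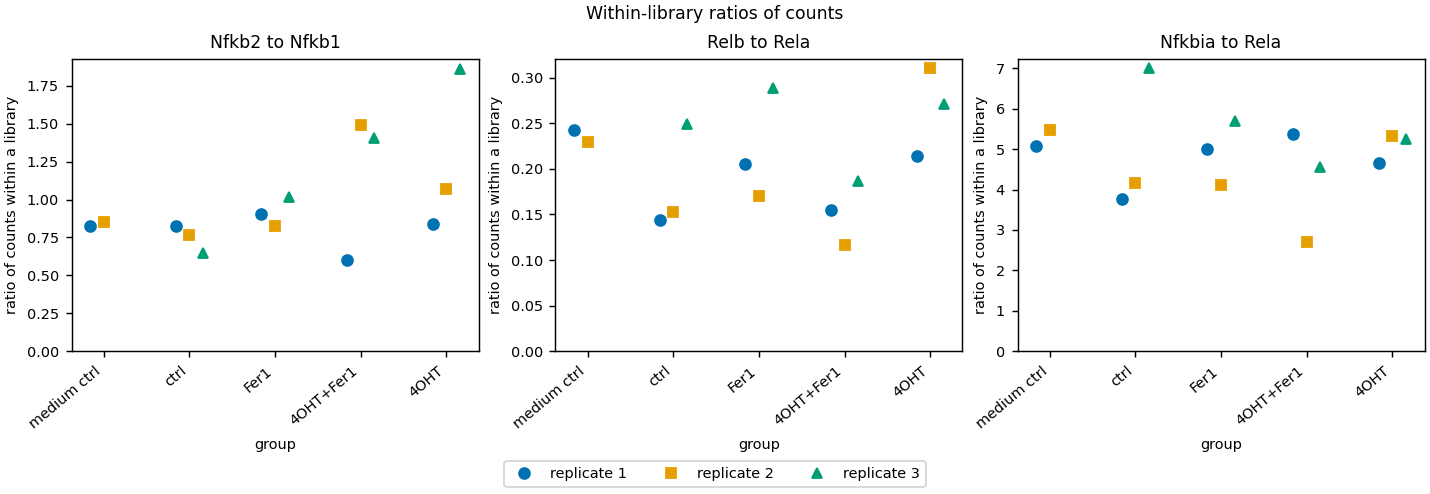
Ratios of counts within each library (y axes) by group (x axes), with replicate numbers as symbols. Relb to Rela reaches 0.311 with 4OHT and is lowest at 0.117 with 4OHT+Fer1, and Nfkb2 to Nfkb1 lies at or below 0.824 in ctrl and at or above 0.841 with 4OHT. For Nfkb2 to Nfkb1, Fer1 and medium ctrl overlap the 4OHT range, at up to 1.02 and 0.849.

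How the 10 genes moved together was described by correlations of log2 CPM over the 14 libraries after the mean of each replicate number had been subtracted. The points share groups and libraries, so that no p is given. The 45 pairs had Pearson correlations between -0.249 and 0.921 with a median of 0.540. Nfkb2 with Relb, the non-canonical pair, was the highest (r = 0.921), and Nfkb2 with Nfkbie and Relb with Nfkbia followed at 0.833 each. Rel with Nfkbiz came to 0.829.

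Among all other genes tested, the profile most like that of Nfkb2 was that of Ifitm2, an interferon-induced membrane protein (r = 0.973), followed by Cdip1 (0.960) and Tbc1d4 (0.953). Relb was closest to the lectin-like receptor gene Clec4a3 (0.960), to Tbc1d4 (0.956) and to Nat8l (0.955). Nfkbia was closest to Mxd1 (0.975), Cd300a (0.974) and P2rx4 (0.964), and Nfkbie to Arid3b (0.948), the scavenger receptor gene Marco (0.948) and Marcksl1 (0.933). For Nfkb1 the leading genes were Rsrp1 and the splicing factor gene Srsf5 (0.979 each) and Mex3c (0.971). Rel was led by Noct (0.950), Rela by Enho (0.946), Nfkbid by Myo9b (0.951), Nfkbiz by Madd (0.946) and Bcl3 by Pip4k2a (0.882). These are the highest values of a search over all genes tested, over 14 libraries, and say nothing of shared control.

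The rest of the pathway was described from fixed lists. Between 4OHT and ctrl none of the receptors and adapters (17 of 19 tested), the kinases (11 of 11), the adaptor and linear ubiquitin complexes (9 of 10) or the other inhibitors (17 of 17) was called, with median log2 fold changes of 0.09, -0.14, -0.07 and 0.07. At an unadjusted p under 0.05, edgeR gave 0, 3, 0 and 2 genes, against 10.8% of all genes. The list of kinases also holds other subunits of kinase complexes. Its smallest p was among those of Tab1, a subunit of the TAK1 complex and not itself a kinase, at 0.72 on the log2 scale (adjusted p = 0.131, edgeR). The IKK kinases Ikbke and Ikbkb, named by the same rule, had 0.38 and 0.27. Of the inhibitors, the RNase gene Zc3h12a stood at 0.72 (adjusted p = 0.222), N4bp1 at 0.55 and the IκBβ gene Nfkbib at 0.30. Traf2, Ripk2 and Tnfrsf1b led the receptors and adapters by p, with -0.49, 0.36 and 0.48, and in the complexes Bcl10 and Rnf31 stood at 0.28 and -0.19.

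Among 40 textbook NF-kB targets, of which 31 were tested, 2 rose and 1 fell between 4OHT and ctrl, against 0.482% and 1.01% of all genes, with a median log2 fold change of 0.29. Il1b, the gene of the cytokine IL-1β, was at 2.63, 2.92 and 17.1 CPM in ctrl and at 37.4, 34.1 and 50.2 CPM with 4OHT. The libraries were clearly separate, and Il1b rose by a log2 fold change of 3.00 (SE 0.40, adjusted p = 0.00737, edgeR). Tnfaip2 rose by 0.83 (adjusted p = 0.0136), and Bcl2a1b, an anti-apoptotic gene with near-identical copies that makes its counts uncertain, fell by 0.89 (adjusted p = 0.0396, edgeR).

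Between ctrl and medium ctrl the same lists held more calls. Of the 31 targets 10 were lower and 1 was higher in ctrl, against 5.58% and 5.28% of all genes, with a median log2 fold change of -0.78. Il1b fell, with a log2 fold change of -3.66, as did Cxcl10 (-2.35), Ccl5 (-1.75), Il10 (-1.71), Cxcl2 (-1.56) and Irf1 (-1.361), while the monocyte chemokine gene Ccl2 rose (2.56). Of the receptors only Cd40, a receptor of the non-canonical arm, was called, at -1.89. Among the kinases Ikbke, Map3k14 (NIK) and Ikbkb were called lower (-0.997, -0.89 and -0.61), and among the complexes Rnf31 was (-0.61). The other inhibitors Tnip3, N4bp1, Zc3h12a and Nlrc5 were lower as well (-1.21, -1.19, -0.94 and -0.90), and the medians of the 4 lists were -0.30, -0.065, -0.36 and -0.27. The same reservation on 2 medium libraries holds for these values.

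**Figure D5:**
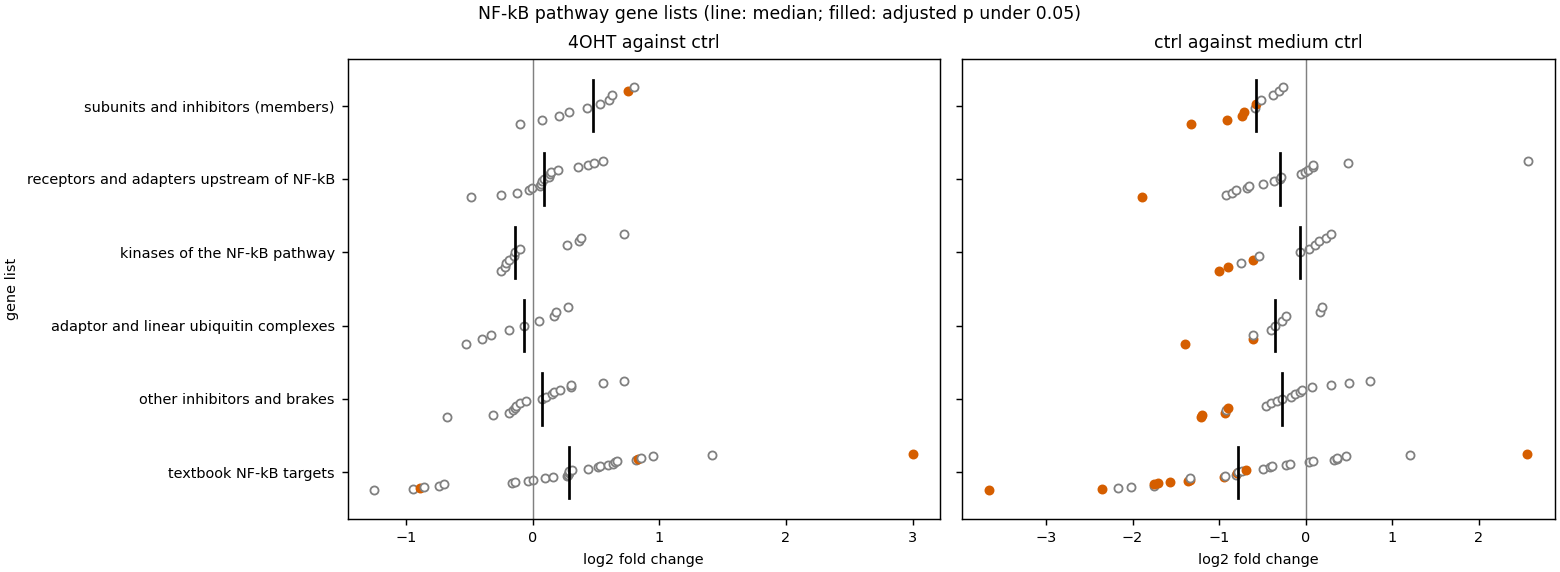
Each point is a gene, at its log2 fold change (x axis) in its list (y axis), for 4OHT against ctrl on the left and ctrl against medium ctrl on the right. Filled points have an adjusted p under 0.05 and the line marks the list's median, which for the 10 genes is 0.48 on the left and -0.58 on the right.

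Some counts are uncertain by position. In the GENCODE M21 annotation Nfkb2 overlaps Psd and AC114539.1 on the opposite strand, Bcl3 overlaps Gm16174 and Gm16175 on the opposite strand, and Nfkb1 overlaps Gm43430 on its own strand. Whether the counting used strand is not given in the sources used here, so that reads of these partners cannot be told apart from those of the gene.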

How the data were processed

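RNA of pBMDMs (4 supernatant groups with 3 libraries each, fresh medium with 2) was sequenced from 3′ ends (QuantSeq). The submitters' processing notes name STAR 2.7.10a and Salmon 1.5.2. The deposited values are expected counts, estimated by Salmon for each gene and not normalized by the authors. The study's methods name a human build and the notes a human and a mouse one, while the identifiers are of mouse genes, so no gene coordinates are given and promoter positions are RefSeq's.

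Expected counts were rounded (30109 values were not whole, and the plan had spoken of counts). edgeR 4.0.16 in R 4.3.3 was used with TMM scaling, filterByExpr at a minimum count of 10, and 1 quasi-likelihood model of all 14 libraries with group and replicate number. The number was taken as the mouse, which the methods have in their design, an assumption. Deviations from group means of same-numbered libraries correlated at a median of 0.247 (0.0022 to 0.646, 26 pairs), those of different numbers at -0.139. P-values measure the spread between these libraries only. Log2 CPM used a prior count of 2.

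The 10 genes and all lists were chosen with earlier results of these data known. Other genes were named by rule, as up to 6 called genes per direction and list with the largest change, or the 3 smallest unadjusted p where none was called between 4OHT and ctrl, and the 3 most correlated genes per member. Alternatives were DESeq2 1.42.0, no block, only the groups compared, other scaling, no filter, an added threshold on the fold change and left-out replicates. The authors' comparison table, with their fold changes and p-values, and its 14 per-sample columns were not used. Scripts were tested on simulated data. A gene that the naming rule selects is not reported here.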

Additional observations from a re-analysis of the deposited data

How the results depend on the processing

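The numbers of members called moved with several settings, while most fold changes kept their direction. Of 603 values of single genes under alternatives, 504 stayed on the same side of the threshold with the same direction, 63 lost their call, 14 gained one and 22 turned direction, none of those called. Only a member called in the main fit could lose its call. These were 1 for 4OHT against ctrl, and 5, 4 and 5 for ctrl, 4OHT+Fer1 and Fer1 against medium ctrl. The 63 lost calls are to be set against these members under the alternatives, and not against all 603 values. Leaving out a single library was chosen after the data were seen. Total counts in place of TMM moved the median of all genes from -0.0084 to 0.11 between ctrl and medium ctrl. There were 2 medium libraries, and Nfkbid had the lowest counts (25 to 137). The cause of the changes below was not tested.

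The percentages are the share of all genes tested that the same setting called, in either direction. Without the replicate block, members called numbered 0 for 4OHT against ctrl (0.0545%), 0 for ctrl (4.07%) and 4OHT+Fer1 (4.45%) against medium ctrl and 1 for Fer1 against medium ctrl (4.07%), and for the other comparisons the block left the number at 0. With DESeq2 they numbered 2 for 4OHT against ctrl (3.25%), 3 for 4OHT against 4OHT+Fer1 (3.17%) and 2 for 4OHT against medium ctrl (6.66%). With only the groups compared they were 0 for 4OHT against ctrl (0%), and 2, 0 and 8 for 4OHT, 4OHT+Fer1 and Fer1 against medium ctrl (12.1%, 7.98% and 30.7%). Total counts gave 3, 2 and 2 for ctrl, 4OHT+Fer1 and Fer1 against medium ctrl (10.8%, 10.0% and 10.1%), and no filter 2, 1 and 3 for ctrl, 4OHT and Fer1 (5.98%, 2.89% and 5.71%). The added fold threshold gave 0 for 4OHT against ctrl (1.11%) and 1, 0 and 1 for ctrl, 4OHT+Fer1 and Fer1 against medium ctrl (7.79%, 7.21% and 7.21%). Leaving out a replicate number or a library gave 0 to 3 for 4OHT against ctrl (0% to 2.03%), 0 to 2 for 4OHT against 4OHT+Fer1 (0% to 3.67%), 0 to 6 for ctrl (0.658% to 12.8%), 0 to 2 for 4OHT (0% to 6.06%), 0 to 5 for 4OHT+Fer1 (0.839% to 13.2%) and 0 to 6 for Fer1 (0.658% to 12.5%) against medium ctrl.

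Direction turned in the following log2 fold changes, none of them called. For 4OHT against medium ctrl, Relb was at 0.047 without the replicate block and between -0.36 and 0.055 without a replicate number, Nfkbie at 0.020 without the block, Nfkbid at -0.025 with only the groups compared and between -0.020 and 0.34 without a number, and Nfkb2 between -0.12 and 0.14. For the interaction, Nfkbiz was at -0.067 without the block and between -0.47 and 0.34 without a number, Nfkb1 between -0.31 and 0.61, Rel between -0.54 and 0.029 and Rela between -0.22 and 0.11. Without a number, Nfkb1 ran from -0.19 to 0.59 for 4OHT against ctrl, and for 4OHT against 4OHT+Fer1 Rel ran from -0.27 to 0.13, Rela from -0.27 to 0.15 and Nfkbiz from -0.11 to 0.19. Bcl3 for 4OHT+Fer1 against medium ctrl was at -0.0026 with only the groups compared and between -0.11 and 0.25 without a number.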
